A study of Homo sapiens with 2 samples.

Results

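The RASSF family comprises 10 genes, RASSF1 to RASSF10, whose products carry a RAS association domain. Probe sets were taken as members when the platform annotation named a RASSF gene as their only gene, which gave 111 of 287329 probe sets and 9 of the 10 genes. No probe set carried the name RASSF10, so this gene was not analysed here. RASSF9 had 2 probe sets, and the other 8 genes had 6 (RASSF7) to 23 (RASSF2). Total RNA came from HCT116, a human colorectal cancer cell line (HCT116-WT), and from HCT116-DKO, a derivative of genotype DNMT1-/- DNMT3b -/- in which both DNA methyltransferase genes are disrupted. The study's methods name HCT116-DKO as the DKO1 line, so that a single knockout line stands for the genotype. Both lines were grown untreated in the same medium, and each was measured on 1 Affymetrix exon array. With 1 array per group there is no replicate error and no test, and differences between the lines cannot be told apart from differences between cultures or arrays. In such bulk RNA, fewer cells that transcribe a gene and less RNA per cell cannot be told apart either.

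RASSF proteins have no enzyme activity and act as scaffolds. The classical members RASSF1 to RASSF6 end in a SARAH domain, through which they can bind the Hippo kinases STK3 and STK4, and several of them promote apoptosis or hold back the cell cycle. RASSF7 to RASSF10 carry the RAS association domain near the N-terminus and lack the SARAH domain. The long isoform RASSF1A is among the genes most often silenced by promoter methylation in human tumours, and promoter methylation of RASSF2 is known from colorectal cancer. DNMT1 copies methylation after replication and DNMT3B sets new methylation. The arrays therefore ask whether RASSF transcripts differ between HCT116 cells with both enzymes and the line in which both genes are disrupted.

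Promoter sequences are given for RASSF1, the best known target of methylation in the family, for RASSF4, whose level crossed background, and for both starts of RASSF5, whose signal differed unevenly along the gene. Each is the stretch of 250 bases before a RefSeq transcript start (GRCh38.p14), read 5′ to 3′ on the strand of the gene, with CpG dinucleotides, the sites of methylation, in capitals. The RASSF1 start lies 3386 bases inside the outermost annotated start, in the part of the gene from which the shorter isoform RASSF1C begins. The stretch printed is thus not the promoter of RASSF1A, the isoform named above for its silencing in tumours. The promoter of the outermost start was not used here.
RASSF1, chr3:50337451-50337700, reverse strand: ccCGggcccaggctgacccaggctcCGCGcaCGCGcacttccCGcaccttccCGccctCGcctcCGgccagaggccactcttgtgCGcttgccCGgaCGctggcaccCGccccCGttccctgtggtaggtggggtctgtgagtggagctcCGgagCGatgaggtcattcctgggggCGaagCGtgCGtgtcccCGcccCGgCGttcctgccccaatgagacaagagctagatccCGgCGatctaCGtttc
RASSF4, chr10:44959552-44959801, forward strand: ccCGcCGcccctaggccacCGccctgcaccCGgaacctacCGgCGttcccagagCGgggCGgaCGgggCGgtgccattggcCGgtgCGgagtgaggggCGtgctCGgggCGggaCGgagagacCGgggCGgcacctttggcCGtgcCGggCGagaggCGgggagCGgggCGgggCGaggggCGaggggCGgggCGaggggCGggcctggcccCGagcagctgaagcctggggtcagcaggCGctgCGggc
RASSF5, outer start, chr1:206507281-206507530, forward strand: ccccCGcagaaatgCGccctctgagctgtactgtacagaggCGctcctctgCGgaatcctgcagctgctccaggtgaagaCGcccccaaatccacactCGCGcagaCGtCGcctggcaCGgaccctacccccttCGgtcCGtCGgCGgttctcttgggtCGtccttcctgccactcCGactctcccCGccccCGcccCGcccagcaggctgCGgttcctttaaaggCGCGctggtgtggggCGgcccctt
RASSF5, inner start, chr1:206556914-206557163, forward strand: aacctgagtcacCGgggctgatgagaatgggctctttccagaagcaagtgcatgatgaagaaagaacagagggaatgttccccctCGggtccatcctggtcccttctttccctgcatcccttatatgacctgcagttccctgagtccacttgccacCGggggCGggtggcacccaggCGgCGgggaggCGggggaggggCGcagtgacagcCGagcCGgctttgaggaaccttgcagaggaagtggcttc

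These stretches hold 25 CpG in RASSF1, 32 in RASSF4, 23 at the outer start of RASSF5 and 10 at its inner start, which lies 49633 bases further into the gene. The promoter table held 9 starts of 7 RASSF genes, as windows of 300 bases that reach 50 bases past the start. The ratio of observed to expected CpG was at least 0.6 in 4 of these 9 windows, against 48.9% of all 35116 windows in the table. The 4 belonged to RASSF1 (0.913), RASSF3 (0.941), RASSF4 (0.848) and the outer start of RASSF5 (0.853). The window of RASSF2 had a ratio of 0.318 and 7 CpG, at a start 8461 bases inside the outermost one. RASSF9 had a ratio of 0.338, and the windows of RASSF6 had 0.295 and 0.58. CpG content describes the sequence, and methylation was not measured on these arrays.

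A gene level was the median polish of the log2 signals of its probe sets. Every difference was taken as the HCT116-DKO value less the HCT116-WT value, on the log2 scale. Background was read from 286 olfactory receptor genes, a class rarely transcribed outside the nose, as the level that 95% of them did not exceed, 7.08 in HCT116-WT and 7.30 in HCT116-DKO. The words rose and fell are kept for genes with 3 or more probe sets that moved by 1 or more, with 75% or more of the probe sets on that side and the higher of both levels over background. Where the lower level was under background, the fold is given as a bound. The SD beside a difference is its spread over the probe sets of the gene within the same pair of arrays. Signals of different genes come from different probes and were not ranked against each other.

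The arrays had medians of 8.28 (HCT116-WT) and 8.37 (HCT116-DKO) over probe sets, and their signals correlated with r = 0.954 across probe sets. In the array labelled HCT116-DKO, DNMT1 fell from 10.63 to 9.36, a difference of -1.26 and 2.40-fold, and DNMT3B fell from 8.32 to 6.91, at least 2.03-fold and in 30 of 32 probe sets. Of 15 measured epithelial and colon markers 9 were above background in both arrays, with EPCAM at 11.81 and 11.43 and KRT8 at 13.02 and 13.33, while 6 (KRT20, VIL1, CDH17, GPA33, LGALS4 and CEACAM5) were above background in neither. The claudin genes CLDN4 (9.36 and 10.27) and CLDN3 (9.30 and 10.11) differed most among the epithelial markers and did not pass the rule. Of 5 measured blood cell markers 0 were above background in either array, and of 6 endothelial markers only CLDN5 was, at 7.55 and 7.39. Of 9 fibroblast markers, 3 (COL1A1, COL1A2 and PDGFRB) were above background in both arrays and 8 were not changed, with a median difference of -0.0018. The remaining one, THY1, rose from 6.23 to 7.64, at least 1.48-fold.

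None of the measured RASSF genes passed the rule for a change in HCT116-DKO. Of 8 members with at least 3 probe sets, 0 rose, 0 fell and 8 were not changed, where 2.66% of all 16253 such genes rose, 0.535% fell and 3.2% did either. The differences of the members ran from -0.52 (RASSF3) to 0.72 (RASSF7). Which member differed most depended on the summary, as RASSF4 passed RASSF7 with the mean (0.69 and 0.62) and with the median over probe sets (1.21 and 0.73), and RASSF3 passed it in size after quantile normalization (-0.67 and 0.64). The median difference of the 8 members was 0.10, beside 0.02 over all genes, and 6 of the 8 had a positive difference. Scaling both arrays to the same median moved the median of all genes by -0.09 and that of the members to 0.0066, and the difference of RASSF2 was then -0.09. Of the 111 probe sets, 60 were higher and 51 lower in HCT116-DKO. At these shares a count of 0 of 8 does not set the family apart from other genes. Of the 8 members, 3 (RASSF3, RASSF4 and RASSF7) differed by at least 0.5 in size, beside 13.8% of all genes, and 5 (RASSF3 to RASSF7) had at least 75% of their probe sets on the same side, beside 47.3%. RASSF3, RASSF8 and RASSF9 lie on chromosome 12, and the other measured members each on a chromosome of its own.

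**Figure D1:**
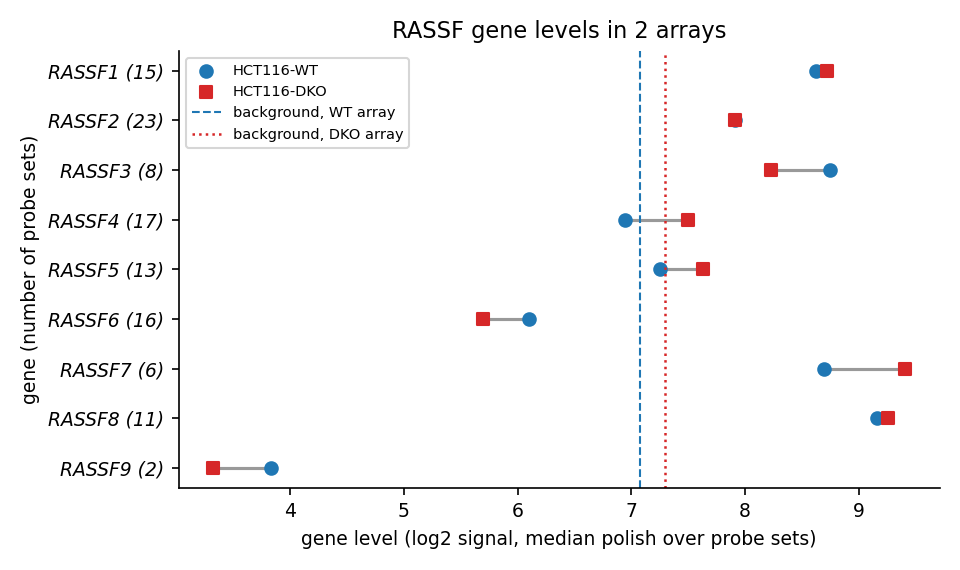
Gene levels (log2 signal, x axis) of the 9 measured RASSF genes, with the number of probe sets beside each name, in HCT116-WT (circles) and HCT116-DKO (squares), 1 array each; dashed and dotted lines mark background, 7.08 and 7.30. The pairs of points lie close together, with RASSF7 0.72 higher in HCT116-DKO and RASSF4 the only gene that stands below background in HCT116-WT and above it in HCT116-DKO.

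RASSF1, a scaffold that binds STK3 and STK4 and, as RASSF1A, microtubules, was above background in both lines and at nearly the same level. Its level stood at 8.62 in HCT116-WT and at 8.72 in HCT116-DKO, a difference of 0.10 (SD over probe sets 0.28), with 8 of 15 probe sets higher and 7 lower. Of all genes, 39.0% had a difference at least as high. Single probe sets differed by -0.62 to 0.46, so that none reached 1 in either direction, and 10 of the 15 were above the background of single probe sets in both arrays (7.66 and 7.68, the signal that 95% of 1042 olfactory receptor probe sets did not exceed).

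The order of probe sets along RASSF1 bears on its separate promoters. Probe set IDs followed the genome: of successive genes on the same chromosome and strand, 98.8% of the 6510 forward pairs and 98.9% of the 6405 reverse pairs stood in rising genome order. In DNMT1, a reverse-strand gene as RASSF1 is, the 4 most reduced probe sets lay at places 42 to 46 of 50, and the study places the disrupted exons near the start of that gene, so the high places are taken as the upstream end. At the upstream end of RASSF1 the signals were not higher in HCT116-DKO. The last place, 15, was at 10.42 in HCT116-WT and 10.16 in HCT116-DKO. Place 14 was at 7.98 and 7.36, above background in HCT116-WT and below it in HCT116-DKO. Place 13 was at 6.11 and 6.07, which is below background in both. The 7 upstream probe sets had a median difference of -0.08 and the 7 downstream ones a median of 0.21, with the middle one left out. This gap of -0.28 was matched or passed in size by 23.7% of the 12941 genes with at least 8 probe sets. Which place belongs to the exon that only RASSF1A holds was not used here.

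RASSF2, a partner of STK3, gave equal gene levels. Its level was 7.91 in both arrays, with a difference of 0.00 (SD over probe sets 0.40) and 12 of 23 probe sets higher. The probe set differences ran from -1.06 to 0.47. The most reduced, at place 16, was at 4.31 and 3.25, below background in both arrays. At the upstream end of this reverse-strand gene, place 23 was at 8.14 and 7.678, the latter just below the background of 7.682 in HCT116-DKO. A signal above background was thus present for RASSF2 in HCT116-WT, where 11 of 23 probe sets were above background in both arrays.

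RASSF3, a short member of the family linked to the p53 pathway, was lower in HCT116-DKO by less than the rule demands. Its level stood at 8.75 in HCT116-WT and at 8.23 in HCT116-DKO, a difference of -0.52 (SD over probe sets 0.61), and all 8 probe sets were lower. Differences as low or lower occurred in 2.96% of all genes, and 10.7% of all genes had every probe set on the same side. Its brightest probe set, at place 1, was at 11.27 and 11.08, while the most reduced, at place 6, was at 6.09 and 4.00 and below background in both. The direction was thus shared by all probe sets, while the size ran from -0.16 to -2.09.

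RASSF4, a member that can promote cell death, was the only one to cross background. Its level stood at 6.95 in HCT116-WT, below background, and at 7.50 in HCT116-DKO, above it, a difference of 0.56 (SD over probe sets 0.68) with 14 of 17 probe sets higher. Measured from the background in HCT116-WT, the difference was at least 0.42. A difference at least as high occurred in 8.90% of all genes. Of its 17 probe sets, 4 were above background in both arrays, and 3 of these were higher in HCT116-DKO. They were at 8.09 and 8.60 at place 1, the first in ID order on this forward-strand gene, at 7.69 and 7.88 at place 9, at 8.84 and 8.60 at place 10, and at 7.76 and 8.89 at place 14. Among these measured probe sets the difference thus ran from -0.24 to 1.13. By the rule for single probe sets (a departure of at least 1 from the gene and a signal above background in at least 1 array), 2 of the 111 RASSF probe sets departed, beside 1.61% of all 260441 probe sets. Both belonged to RASSF4 and passed through HCT116-DKO alone. The probe set at place 4 was at 5.81 and 7.996 and that at place 13 at 6.17 and 7.80, and as both were below background in HCT116-WT, their differences are known only to be at least 0.34 and 0.15. With the median over probe sets in place of the median polish, the difference of RASSF4 was 1.21 and the gene passed the rule. With that summary 542 genes rose, beside 433 with the median polish. The 2 medians, 6.66 in HCT116-WT and 7.88 in HCT116-DKO, were signals of different probe sets, at places 11 and 9. These probe sets themselves differed by 1.28 and 0.19. The HCT116-WT median was below background, so 1.21 is not a measured difference.

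RASSF5 encodes NORE1, a partner of RAS and of STK4, and RAPL, a shorter product from an inner start that links RAP1 to the adhesion of lymphocytes. The gene level stood at 7.25 in HCT116-WT and at 7.63 in HCT116-DKO, a difference of 0.38 (SD over probe sets 0.49), with 11 of 13 probe sets higher. The difference was uneven along the gene, which lies on the forward strand, so that low places are upstream. The 6 upstream probe sets differed by -0.22 to 0.38, with a median of 0.14, and the 6 downstream ones by 0.33 to 1.17, with a median of 0.95. The middle probe set, at place 7, was at 7.78 and 8.67. A gap of this size, 0.81, or larger was seen in 3.96% of the 12941 genes. Of the 7 members with at least 8 probe sets, 2 (RASSF4 with 0.54 and RASSF5) had a gap of at least 0.5, beside 9.8% of those genes. Among the upstream probe sets the brightest probe set, at place 2, was at 10.15 and 9.93. Among the downstream ones, place 11 was at 8.82 and 9.98 and place 10 at 7.75 and 8.93, both above background in both arrays. The last places, 12 and 13, were at 6.41 and 7.17 and at 6.18 and 7.32, below background in both. The downstream median lies between the differences of these places, and the upstream median between those of places 1 and 5, also below background in both. The size of the gap, 0.81, thus rests on signals below background. Of the probe sets above background in both arrays, places 2, 3 and 4 upstream differed by -0.22, 0.27 and -0.17, and places 10 and 11 downstream by 1.17 and 1.16. The split into upstream and downstream probe sets was chosen after the values were seen, and where the inner start falls among the places was not used here.

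**Figure D2:**
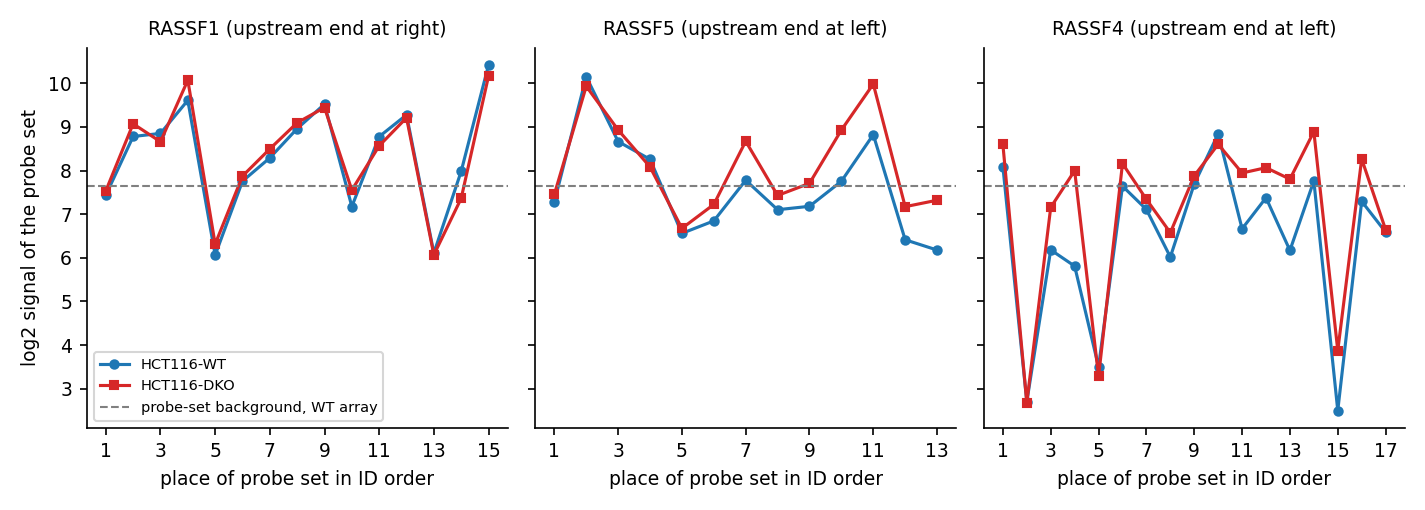
Log2 signal (y axis) of each probe set of RASSF1, RASSF5 and RASSF4 by its place in ID order (x axis) in HCT116-WT (circles) and HCT116-DKO (squares); the dashed line is the probe-set background of the HCT116-WT array, 7.66. The lines of RASSF1 stay within 0.62 of each other up to the upstream end at place 15, those of RASSF5 differ by 1.17 and 1.16 at places 10 and 11, and at places 4 and 13 RASSF4 lies below that line in HCT116-WT and just above it in HCT116-DKO.

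RASSF6, which interacts with the apoptosis protein MOAP1, was above background in neither array. Its level stood at 6.10 in HCT116-WT and at 5.70 in HCT116-DKO, a difference of -0.41 (SD over probe sets 0.56) with 12 of 16 probe sets lower. Of its probe sets 1 was above background, at place 15, with 9.42 and 8.71. RASSF6 thus gave a signal within the range of the olfactory receptor genes in both lines, and no direction is read from its difference.

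Among the members without a SARAH domain, RASSF7, which acts in mitosis, was higher in HCT116-DKO by less than the rule demands. Its level stood at 8.69 in HCT116-WT and at 9.41 in HCT116-DKO, a difference of 0.72 (SD over probe sets 0.45), or 1.64-fold, with 5 of 6 probe sets higher. Of all genes, 6.09% had a difference at least as high. The 5 higher probe sets differed by 0.64 to 1.05, the latter at place 6, with 8.83 and 9.88, and all of them were above background in both arrays. The remaining one, at place 4, was at 7.14 and 6.89, below background in both. RASSF7 would count as risen at a threshold of 0.58, at which 921 genes rose.

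RASSF8, a protein of cell junctions, was at 9.16 in HCT116-WT and 9.26 in HCT116-DKO, a difference of 0.10 (SD over probe sets 0.42) with 6 of 11 probe sets higher. The 2 largest differences, 0.98 at place 11 (2.29 and 3.28) and 0.73 at place 3 (3.46 and 4.19), came from probe sets below background in both arrays. Place 10, at 10.15 and 10.27, and place 1, at 11.09 and 10.75, gave the strongest signals of the gene. RASSF9, known as an interactor of the amidating enzyme PAM, had too few probe sets for the rule. They were at 4.82 and 3.99 and at 2.85 and 2.66, below background in both arrays.

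**Figure D3:**
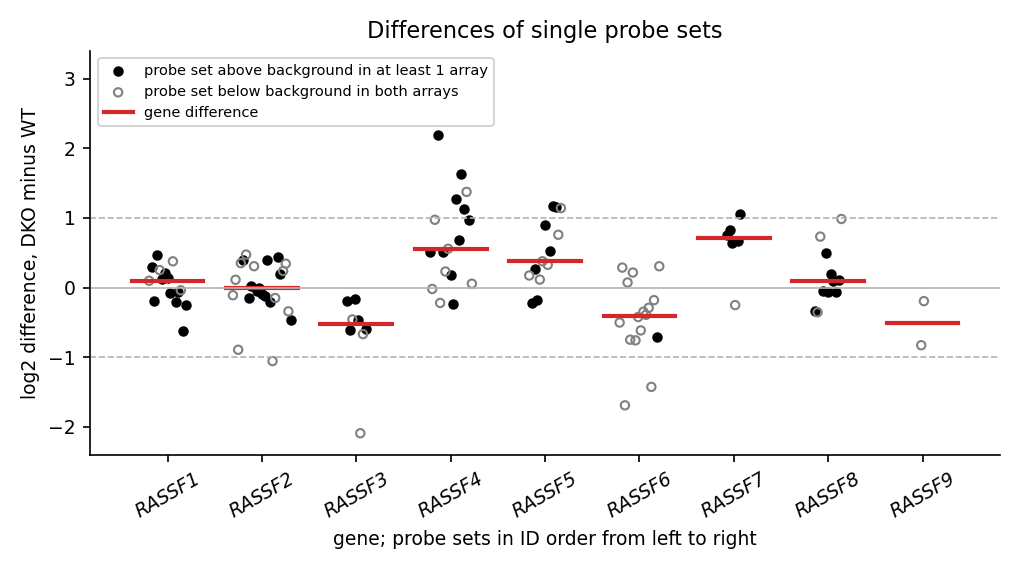
Log2 difference, HCT116-DKO minus HCT116-WT (y axis), of each of the 111 RASSF probe sets, grouped by gene (x axis) and in ID order within a gene; filled points were above the probe-set background in at least 1 array, open points in neither, and the red bar is the gene difference. The bars lie between -0.52 (RASSF3) and 0.72 (RASSF7), inside the dashed lines at -1 and 1, and RASSF4 spreads most widely upward, with 4 of its 17 probe sets above background in both arrays.

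**Figure D4:**
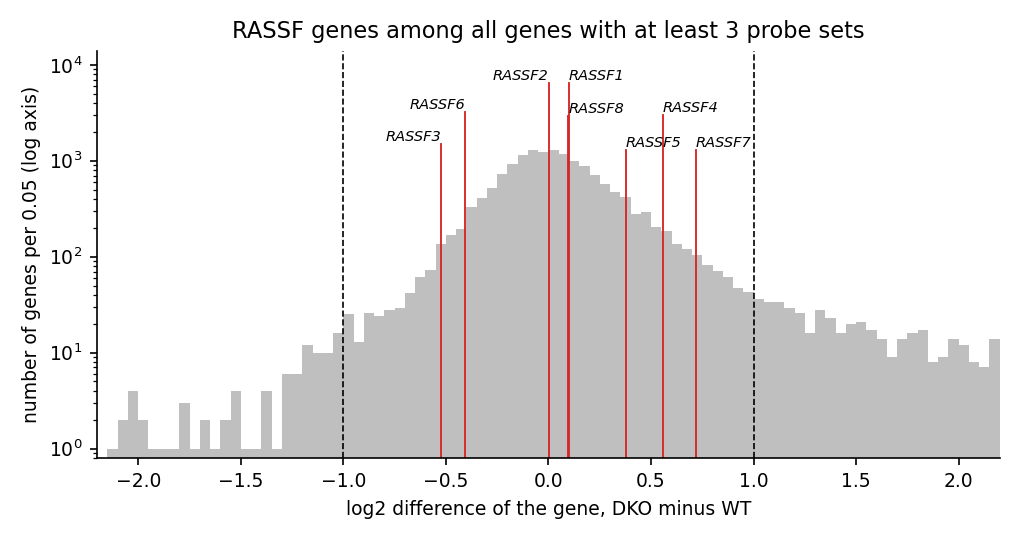
Number of genes (log axis) per bin of 0.05 of the log2 difference, HCT116-DKO minus HCT116-WT (x axis), for the 16253 genes with at least 3 probe sets, with red lines at the 8 RASSF genes and dashed lines at -1 and 1; the 199 genes beyond 2.2 in size are not drawn. All 8 RASSF genes lie between the dashed lines, and RASSF1, RASSF2 and RASSF8 near the peak.

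In the Hippo pathway, STK3 and STK4 with SAV1 activate LATS1 and LATS2 and so restrain the coactivators YAP1 and WWTR1. Of 20 genes on the Hippo list, 20 were above background in both arrays, beside 66.3% of all genes. None rose or fell, beside 3.2% of all genes, and the median difference was 0.11, beside 0.02. Counts this low do not set this list or those that follow apart from other genes. The kinases that bind RASSF proteins were close to equal, STK3 at 9.31 and 9.53 and STK4 at 10.57 and 10.65, as was SAV1, at 9.72 and 9.84. The list's largest differences were 0.73 for FRMD6, an upstream activator of the pathway (7.81 and 8.55), and 0.49 for WWTR1 (9.63 and 10.12, with 9 of 9 probe sets higher). Of 22 YAP target genes, 1 rose and 0 fell, and the median difference was 0.11. This was TGFB2, a growth factor, which rose from 5.86 to 8.71, at least 3.10-fold, in 9 of 11 probe sets. The classical targets CCN1 (8.65 and 8.35) and CCN2 (8.99 and 9.08) did not pass the rule. Differences within this list went both ways, from -0.84 to 2.86, and 14 of the 22 were positive.

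Of 10 measured RAS and RAP genes, whose products can bind the RAS association domain, 10 were above background in both arrays and 0 changed, with a median difference of 0.17. RRAS had the largest difference, 0.59 (10.18 and 10.77), and RAP2B the lowest, -0.37 (9.83 and 9.46). Of 16 genes that encode other binding partners of RASSF proteins, 0 rose and 1 fell, and the median difference was 0.07. The gene that fell was PAM, at 10.64 in HCT116-WT and 9.28 in HCT116-DKO, which is 2.57-fold lower (log2 difference -1.36, SD over probe sets 0.42), with 32 of 32 probe sets lower. PAM is the partner after which RASSF9 was first named, and RASSF9 itself was below background in both arrays. MOAP1, which joins RASSF1A to the apoptosis protein BAX, was at 8.55 and 8.64, and BAX at 9.21 and 9.60.

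**Figure D5:**
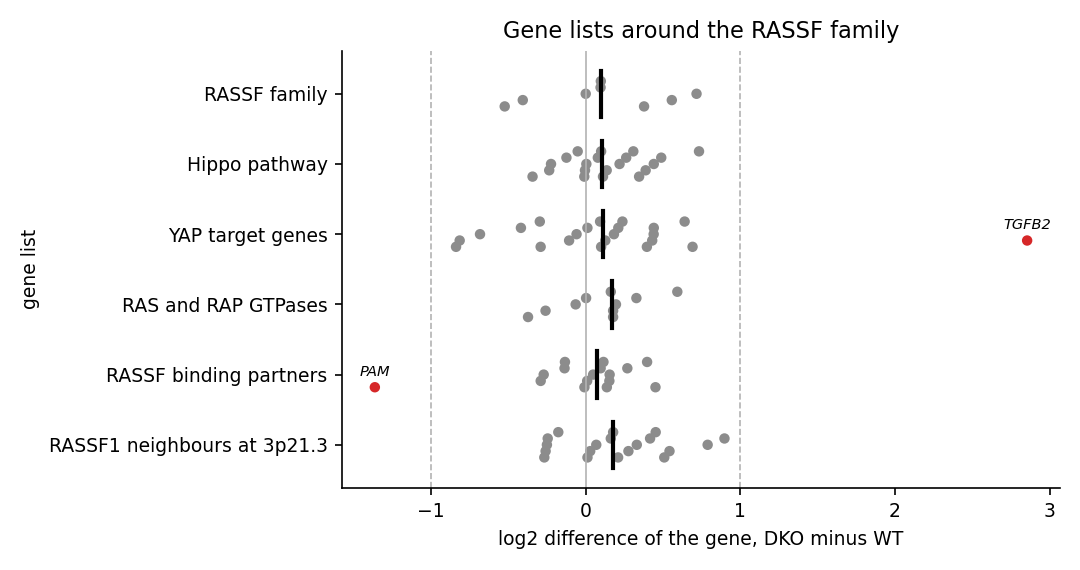
Log2 difference, HCT116-DKO minus HCT116-WT (x axis), of each gene with at least 3 probe sets in 6 gene lists (y axis); black bars are list medians, red points are genes that passed the rule and dashed lines stand at -1 and 1. The medians lie between 0.07 and 0.18, and only TGFB2 (2.86) and PAM (-1.36) passed the rule.

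Genes beside the RASSF genes were mostly not changed either. Of 19 measured genes around RASSF1 on chromosome 3, a region often lost or silenced in tumours, 0 rose and 0 fell, with a median difference of 0.18. GNAI2, a G protein subunit, had the largest difference, 0.90 (10.56 and 11.46), followed by the hyaluronidase gene HYAL1 with 0.79 (8.84 and 9.63). The direct neighbours of RASSF1 were TUSC2, at 9.10 and 9.28, and ZMYND10, at 7.97 and 8.51. Over all RASSF genes, the 3 measured genes on either side made 60 neighbours, of which 2 rose (3.33%) and 0 fell, close to the 2.66% and 0.535% of all genes. They were ZNF32 near RASSF4, from 6.41 to 8.24 and at least 2.23-fold, and SLC6A15 near RASSF9, from 4.99 to 8.56 and at least 2.80-fold, in all 17 probe sets. Both were named after their values were seen, and RASSF4 stood 0.56 higher while RASSF9 was 0.51 lower between levels below background.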

How the data were processed

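The authors deposited log2 signals, 1 value for each of 287329 exon-level probe sets and array, with 1 array per group and no read depth. The submitters' processing notes name RMA, and the methods of the study add Expression Console and Partek Genomic Suite without saying which made these values. The number of arrays limits the precision. Gene names came from the platform annotation, with older symbols updated through RefSeq (GRCh38.p14); 261481 had 1 gene, 8947 several and 16901 none. Gene levels came from median polish in Python 3.11.15 with numpy 2.4.6 and pandas 2.3.3, and the procedure was tested on simulated data. The differences added there were above the threshold of 1 and in genes well above background. The check thus did not cover smaller differences or genes near background. No test was run, since a test needs replicates. Promoter sequences are RefSeq's. Alternatives covered scaling, summary, choice of probe sets and the rule of size. The members and lists were chosen with earlier results of these data known. Genes named were all RASSF genes, DNMT1, DNMT3B and, per list, up to 4 changed members or else up to 2 above background in both arrays with the largest difference; STK3, STK4, SAV1, CCN1, CCN2, MOAP1, BAX, TUSC2, ZMYND10, EPCAM and KRT8 were added for their roles. The split of genes into upstream and downstream probe sets was added after the values were seen.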

Additional observations from a re-analysis of the deposited data

How the results depend on the processing

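No paired analysis was possible because each group had 1 array, and for the same reason no array could be left out. Of the RASSF genes, 1 rose (RASSF7) at a log2 threshold of 0.58. With the median over probe sets as the level, 1 rose (RASSF4, with 1.21, from 6.66 in HCT116-WT, below the main background of 7.08). Over all genes, 542 rose and 111 fell with that summary. Under the other 14 alternatives 0 rose, and 0 fell under any of the 16. Several of these outcomes were fixed in advance by the main values. No member differed by more than 0.72, so a threshold of 1.5 or other demands on background or direction could not call any. Keeping probe sets of several genes left every member at its main value. Over all genes, 433 rose and 87 fell, which became 921 and 292 at a threshold of 0.58, 270 and 31 at a threshold of 1.5, and 221 that rose with the 99th percentile as background. The 2 departing probe sets were 0 at a departure of 2 and 6 without the demand on background. Quantile normalization moved the median of all genes by -0.088 and that of the members from 0.10 to 0.0077, and the median over probe sets made it -0.03. RASSF3, RASSF4, RASSF5 and RASSF7 kept their sign under all 8 alternatives of scaling, summary and probe sets. RASSF7 ran from 0.62 to 0.83, RASSF4 from 0.42 to 1.21, RASSF5 from 0.24 to 0.53 and RASSF3 from -0.67 to -0.46. All 8 re-use the same pair of arrays, and they include the alternative that changed no member value. RASSF6, below background, ranged from -0.93 to -0.05. RASSF1 ranged from -0.21 to 0.13, RASSF2 from -0.19 to 0.11 and RASSF8 from -0.05 to 0.35, so these have no direction. With only the outer probe sets at each end compared, an alternative chosen after seeing the data, the gap along RASSF5 was 1.15 in place of 0.81. The outer probe sets too include some below background in both arrays, at places 1, 12 and 13.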
